A study of Mus musculus with 16 samples.

Results

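The subject is a set of 10 receptor genes through which neutrophils sense where to go, out of 49585 gene identifiers counted in 16 RNA sequencing libraries. The genes were named by their function and not by their values: the chemokine receptors Cxcr2, Cxcr4 and Ccr1, the formyl peptide receptors Fpr1 and Fpr2, the complement receptors C5ar1 and C3ar1, the lipid receptors Ltb4r1 and Ptafr, and Csf3r, the receptor for granulocyte colony-stimulating factor (G-CSF). All 10 were measured in every library and passed the filter on low counts in each comparison. The lowest count of any of them in a library was 79, for C3ar1, and the other 9 had at least 1005 counts in each library.

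The libraries were labelled as neutrophils sorted by flow cytometry, with bones as the source, from C57BL/6 mice aged 8 to 12 weeks. In the group P2KO the labels give Vav:cre-PHD2f/f, a deletion of the oxygen sensor PHD2 (gene Egln1), and P2WT held the wild-type controls of that line. In P2H2KO they give Vav:cre-PHD2/HIF2ff/ff, a deletion of PHD2 together with the transcription factor subunit HIF2α (gene Epas1), and P2H2WT held the wild-type controls of that line. Vav:cre is active in blood-forming cells as a whole, so the labelled deletions were not limited to neutrophils. The labels do not give the control genotype in more detail, nor whether 1 library was 1 mouse, and p-values measure the spread between these libraries only. Each group had 4 libraries, and no treatment was named.

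Apart from Csf3r, these receptors are seven-helix proteins coupled to inhibitory G proteins, whose release of βγ subunits drives phosphoinositide 3-kinase, Rac and the actin machinery of the leading edge. Cxcr4 holds neutrophils in the bone marrow by binding Cxcl12 from stromal cells, and Cxcr2, which binds chemokines such as Cxcl1 and Cxcl2, draws them out into blood. Receptors for formyl peptides, C5a and leukotriene B4 guide the cells within inflamed tissue, and their transcripts accumulate late in neutrophil maturation. Csf3r is a single-span cytokine receptor that signals through Jak and Stat3 and supports neutrophil production and release. HIF2α pairs with Arnt and binds a short DNA core near genes that respond to low oxygen, and PHD2 marks it for destruction when oxygen is present.

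Because HIF2α was one of the proteins targeted, the 250 bases before the RefSeq start of each receptor gene were searched for the 2 spellings of that core, ACGTG and GCGTG, on both strands. All 10 receptors matched a RefSeq promoter window of the GRCm38.p6 build. The windows of C5ar1 (chr7:16259339-16259588) and Csf3r (chr4:126024409-126024658) reach far into the gene spans given below, which come from GENCODE. ACGTG was found in none of the 10, against 16.6% of 32851 windows of the same length, and GCGTG in those of Cxcr4 and Ccr1, against 28.2%. With either spelling the share over all windows was 38.6%. An ETS-type sequence, GGAAGT, was found in the windows of Cxcr2 and C5ar1, against 19.7% of windows, and a C/EBP-type sequence, TTGCNNAA, in none of the 10, against 9.56%. The windows of Cxcr4 (chr1:128592300-128592549, minus strand), Ccr1 (chr9:123968693-123968942, minus strand) and Cxcr2 (chr1:74153744-74153993, plus strand) are printed here 5′ to 3′, the first pair because they hold the core, in capitals, and the last because Cxcr2 had the lowest p-value of the set. In Cxcr4 the core began 39 bases before the start, and in Ccr1 it lay 25 bases before the start and reads CACGC, since it is on the other strand.
Cxcr4: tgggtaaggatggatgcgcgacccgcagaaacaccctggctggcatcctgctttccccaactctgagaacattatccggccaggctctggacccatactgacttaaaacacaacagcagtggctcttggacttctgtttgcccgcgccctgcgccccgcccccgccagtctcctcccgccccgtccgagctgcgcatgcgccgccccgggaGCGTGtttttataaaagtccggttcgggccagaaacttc
Ccr1: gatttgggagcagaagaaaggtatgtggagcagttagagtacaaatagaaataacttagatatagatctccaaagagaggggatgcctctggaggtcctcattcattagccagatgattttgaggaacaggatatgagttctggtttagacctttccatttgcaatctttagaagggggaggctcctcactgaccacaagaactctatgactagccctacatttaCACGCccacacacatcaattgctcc
Cxcr2: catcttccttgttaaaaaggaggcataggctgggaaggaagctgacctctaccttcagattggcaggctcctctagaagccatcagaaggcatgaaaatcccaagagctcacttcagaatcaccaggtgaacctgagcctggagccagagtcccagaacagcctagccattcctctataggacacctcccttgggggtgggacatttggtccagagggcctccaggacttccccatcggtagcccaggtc
These matches describe letters only. Binding was not measured, and the values that follow show that no receptor, with or without the core, passed the test in either comparison with controls.

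Depth was even, with 23450746 to 28601284 counts per library. Egln1 and Epas1, the targeted genes, were not lower in the libraries labelled as deleted. Egln1 lay between 43.2 and 58.8 CPM (counts relative to the scaled library total) over the 16 libraries. It averaged 49.5 ± 6.40 CPM in P2KO and 48.7 ± 2.21 in P2WT, and 53.2 ± 4.39 in P2H2KO and 52.2 ± 2.97 in P2H2WT (SD, n = 4). Epas1 averaged 5.65 ± 2.17 CPM in P2H2KO and 3.56 ± 1.02 in P2H2WT (SD, n = 4), a log2 difference of 0.66 (edgeR adjusted p = 0.9999). In the P2 line Epas1 averaged 12.3 ± 8.22 CPM in P2KO and 10.03 ± 1.40 in P2WT (SD, n = 4), so that the wild-type groups differed from each other, with Epas1 higher in P2WT than in P2H2WT by 1.49 on the log2 scale (edgeR adjusted p = 0.0076). Counts over a whole gene do not check the loss of single exons, so these values neither bear out nor contradict the labels. Transcripts of other lineages were present in every library, whatever the sort. The summed level of 9 erythroid genes was 25754 to 52727 CPM, close to the 21043 to 51184 CPM of 8 late granule genes of neutrophils. Sums of 8 eosinophil genes lay between 3010 and 6623 CPM, of 15 monocyte and macrophage genes between 2217 and 3698 CPM, of 10 B cell genes between 221 and 781 CPM, and of 12 mature neutrophil genes between 2691 and 8172 CPM. Every marker on these lists was detected in at least 1 library. Fewer cells of a type and less RNA per cell cannot be told apart in such bulk libraries, and Cxcr4, Ccr1 and C3ar1 are also known from monocytes, B cells or eosinophils.

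Compared per length of exons, Cxcr4 was the most abundant of the 10 transcripts and C3ar1 the scarcest. Over the 16 libraries the levels in CPM per kilobase were 200.1 ± 31.2 for Cxcr4, 127 ± 30.5 for Ltb4r1 and 103 ± 35.5 for Fpr2 (SD, n = 16). Cxcr2 followed at 81.9 ± 29.8, Fpr1 at 60.2 ± 20.8, Csf3r at 57.8 ± 15.9, C5ar1 at 46.2 ± 15.7, Ccr1 at 40.4 ± 11.1 and Ptafr at 16.9 ± 4.87. C3ar1, at 0.953 ± 0.207, stood far below the rest, and Ptafr exceeded it 9.97-fold to 23.0-fold within single libraries. The order was nearly the same in each library. Cxcr4 exceeded Ltb4r1, Fpr2 exceeded Cxcr2, Cxcr2 exceeded Fpr1, and Ccr1 exceeded Ptafr in 16 of 16 libraries, and Ltb4r1 exceeded Fpr2 in 15. The neighbours that could not be separated were Fpr1 and Csf3r, with Fpr1 the higher in 10 of 16 libraries.

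The first question was whether loss of PHD2 moved these receptors. None of the 10 was called in P2KO against P2WT by edgeR's quasi-likelihood test at an adjusted p under 0.05, a threshold that 0.0437% of 13734 tested genes passed. Nor did any reach an unadjusted p under 0.05, which 3.49% of tested genes did. Of the 10 log2 fold changes, 5 were above 0 and 5 below, from -0.12 for Ptafr to 0.16 for C3ar1, with a median of 0.0032 beside 0.020 over all tested genes. Of all tested genes 57.8% were above 0. No receptor had groups that did not overlap, which 2.25% of tested genes did. The limits of this comparison are set by the spread: the 95% interval of the fold change ran from 0.531 to 2.10 for Cxcr2, whereas for Cxcr4, the steadiest transcript, it ran from 0.794 to 1.19. The next question was whether PHD2 loss acted differently when HIF2α was lost as well. In P2H2KO against P2H2WT again 0 of 10 were called, where 0.0744% of 13435 tested genes were, and 0 of 10 had groups that did not overlap, beside 1.71% of genes. Here 9 of the 10 log2 fold changes were above 0, with a median of 0.12 beside 0.0011 over all tested genes.

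**Figure D1:**
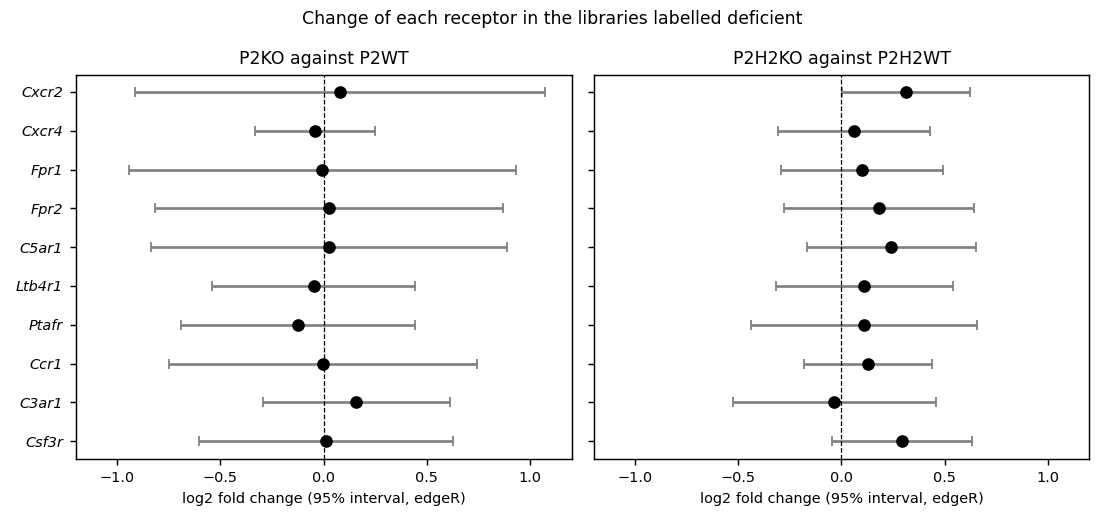
Log2 fold change of each receptor (x axis, with the 95% interval from edgeR) in P2KO against P2WT, left, and P2H2KO against P2H2WT, right, n = 4 libraries per group. In the left panel 10 of 10 intervals cross 0 and the point estimates lie between -0.12 and 0.16. In the right panel the interval of Cxcr2 begins just above 0 and the other 9 cross it.

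Among the chemokine receptors, Cxcr2 (chr1:74153989-74161246, GRCm38, 2 exons) was the most variable. In P2KO it stood at 222, 143, 476 and 115 CPM in replicates 1, 5, 6 and 9, and in P2WT at 351, 207, 186 and 169 CPM in replicates 10, 3, 4 and 7. P2KO replicate 6 was the highest of all 16 libraries and replicate 9 of the same group the lowest, so the range of P2KO enclosed that of P2WT. In P2H2KO the levels were 269, 247, 317 and 343 CPM in replicates 11, 12, 15 and 17, and in P2H2WT 236, 211, 208 and 293 CPM in replicates 13, 14, 16 and 18. These groups overlapped through P2H2WT replicate 18, which was above P2H2KO replicates 11 and 12. The fold change was 1.06 in P2KO and 1.24 in P2H2KO, a log2 difference of 0.31 with a standard error of 0.14 (edgeR adjusted p = 0.9999). The latter was the 1 receptor of 10 under an unadjusted p of 0.05, a level that 2.63% of tested genes reached. With all 16 libraries in 1 fit, among other alternatives, no receptor reached it.

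Cxcr4 (chr1:128588199-128592293, minus strand, 2 exons) kept to a narrow band. Its levels were 299.7, 298, 433 and 322 CPM in P2KO replicates 1, 5, 6 and 9, and 373, 352, 330.1 and 349.6 CPM in P2WT replicates 10, 3, 4 and 7. P2WT lay wholly within the range of P2KO. P2H2KO replicates 11, 12, 15 and 17 had 346, 297, 447 and 458 CPM, and P2H2WT replicates 13, 14, 16 and 18 had 351, 297, 429 and 407 CPM. In both groups of that line the levels spread over about the same range. The fold changes were 0.971 (95% interval 0.794 to 1.19) in P2KO and 1.04 (0.808 to 1.35) in P2H2KO. Ccr1 (chr9:123962124-123968692, minus strand), a receptor for chemokines such as Ccl3 and Ccl5, ranged from 55.4 to 182 CPM in P2KO, from 86.7 to 135 in P2WT, from 112 to 149 in P2H2KO and from 91.5 to 136 in P2H2WT, with fold changes of 0.998 and 1.09.

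**Figure D2:**
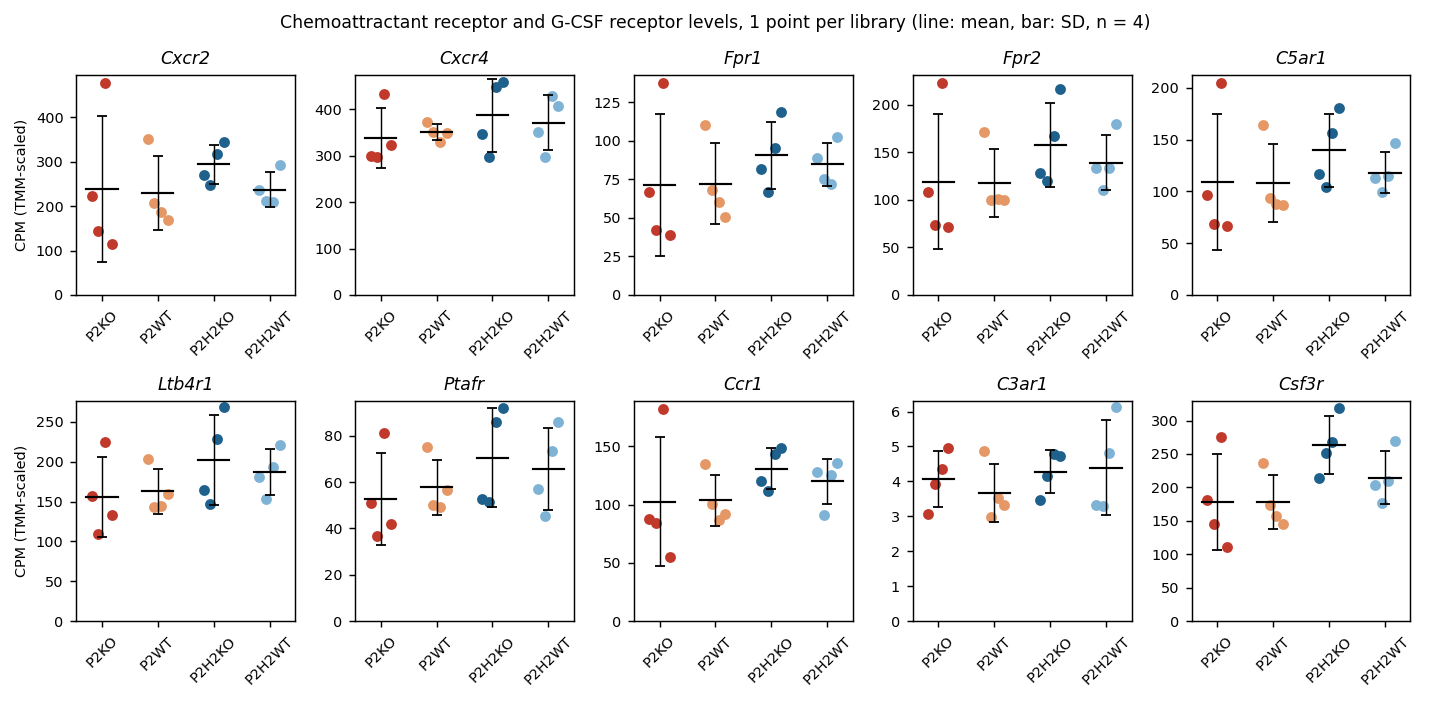
Level of each receptor in CPM (y axis from 0) by group, 1 point per library, with the group mean (line) and SD (bar), n = 4. For Cxcr2 P2KO replicate 6 stands at 476 CPM, above all other libraries, while Cxcr4 lies between 297 and 458 CPM throughout.

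The balance of Cxcr2 over Cxcr4 within a library was taken as 1 value per library, the log2 of their ratio with 1 CPM added to each. In P2KO it was -0.43, -1.05, 0.14 and -1.48 in replicates 1, 5, 6 and 9, and in P2WT -0.09, -0.76, -0.82 and -1.04 in replicates 10, 3, 4 and 7. Only P2KO replicate 6 had more Cxcr2 than Cxcr4 among the 16 libraries. The means were -0.71 ± 0.71 and -0.68 ± 0.41 (SD, n = 4; exact two-sided permutation p = 0.914). In P2H2KO the ratio was -0.36, -0.27, -0.49 and -0.41 in replicates 11, 12, 15 and 17, and in P2H2WT -0.57, -0.49, -1.04 and -0.47 in replicates 13, 14, 16 and 18. The P2H2KO libraries lay close together and their means differed by 0.26 from the controls, -0.38 ± 0.096 against -0.64 ± 0.27 (SD, n = 4; exact permutation p = 0.0857, adjusted over 3 ratio tests 0.257). The groups overlapped, because P2H2KO replicate 15 was below P2H2WT replicates 14 and 18. The smallest p that 4 against 4 libraries can give is 0.0286. Left out, P2H2WT replicate 16 lowered the difference to 0.13. P2WT and P2H2WT differed by -0.04 (exact permutation p = 0.914).

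**Figure D3:**
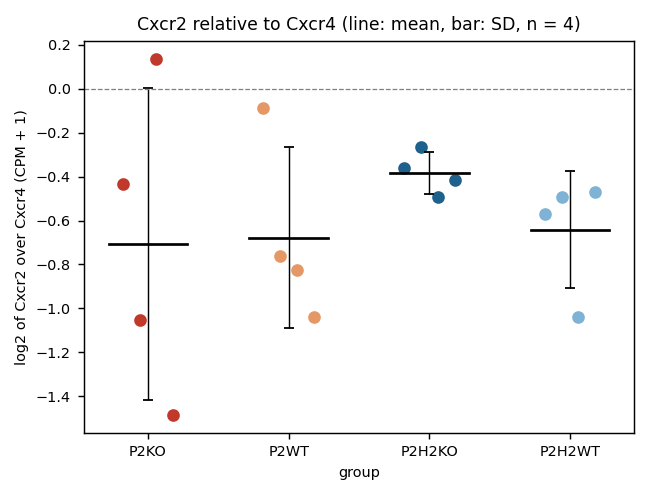
Log2 of Cxcr2 over Cxcr4 (CPM + 1, y axis) in each library by group, with mean (line) and SD (bar), n = 4; the dashed line marks equal levels. P2H2KO has the smallest SD, 0.096, and P2KO the largest, 0.71.

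The formyl peptide receptors, which detect fragments of bacterial and mitochondrial proteins, sit side by side on chromosome 17 and varied together. Fpr1 (chr17:17876471-17883940, minus strand) had 67.0, 42.3, 137 and 38.6 CPM in P2KO replicates 1, 5, 6 and 9 and 109.9, 68.0, 60.5 and 50.3 CPM in P2WT replicates 10, 3, 4 and 7. Fpr2 (chr17:17887824-17893952, plus strand) had 109, 73.5, 223 and 71.5 CPM in the same P2KO libraries and 172, 100.3, 101 and 99.6 CPM in those of P2WT. In P2KO replicate 6 stood highest for both, and in P2WT replicate 10 did. P2H2KO ranged from 67.0 to 118 CPM for Fpr1 and 119 to 217 for Fpr2, and P2H2WT from 72.1 to 103 and 110.5 to 179.9 CPM. The fold changes in P2KO were 0.996 (95% interval 0.520 to 1.91) for Fpr1 and 1.02 (0.568 to 1.83) for Fpr2, and in P2H2KO 1.07 (0.816 to 1.41) and 1.13 (0.826 to 1.56). Exons of Fpr2 overlap those of Fpr3 on the same strand, and Fpr3 had at most 0.08 CPM in any library. The relatives Fpr-rs3, Fpr-rs4, Fpr-rs6 and Fpr-rs7 had 0 counts in all 16 libraries.

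The complement receptors differed in how they varied. C5ar1 (chr7:16246743-16259540, minus strand), the receptor for the complement fragment C5a, had 96.3, 68.2, 205 and 67.0 CPM in P2KO replicates 1, 5, 6 and 9 and 164, 93.8, 88.1 and 86.3 CPM in P2WT replicates 10, 3, 4 and 7. As for Fpr2 and Cxcr2, P2KO replicate 6 and P2WT replicate 10 were the highest of their groups. In P2H2KO it ranged from 104 to 180.5 CPM and in P2H2WT from 99.1 to 146 CPM, and the fold changes were 1.02 (95% interval 0.560 to 1.85) and 1.18 (0.889 to 1.57). C3ar1 (chr6:122847138-122856161, minus strand), the receptor for C3a, was far scarcer. It had 3.05, 3.94, 4.35 and 4.95 CPM in P2KO replicates 1, 5, 6 and 9 and 4.87, 2.97, 3.52 and 3.32 CPM in P2WT replicates 10, 3, 4 and 7. P2KO replicate 9, lowest of 16 for Cxcr2, Fpr1, Fpr2, C5ar1, Ccr1 and Csf3r, was the highest of its group for C3ar1. P2H2KO ranged from 3.46 to 4.78 CPM and P2H2WT from 3.31 to 6.14 CPM. C3ar1 was the only receptor with a fold change below 1 in P2H2KO, 0.977 (95% interval 0.696 to 1.37), and had the highest in P2KO, 1.12 (0.815 to 1.53).

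Ltb4r1 (chr14:55765962-55768494), the high-affinity receptor for leukotriene B4, ranged from 109 to 225 CPM in P2KO, 144 to 203 in P2WT, 147 to 268 in P2H2KO and 153 to 221 in P2H2WT. Its fold changes were 0.967 (95% interval 0.687 to 1.36) in P2KO and 1.08 (0.802 to 1.45) in P2H2KO. Ptafr (chr4:132564067-132582683), which binds platelet-activating factor, ranged from 36.5 to 81.1, 49.4 to 75.0, 51.3 to 92.0 and 45.5 to 85.7 CPM in the same order of groups, with fold changes of 0.918 (0.620 to 1.36) and 1.08 (0.737 to 1.58). For both lipid receptors the wild-type range lay within the range of the P2KO group in the first line. Csf3r (chr4:126024550-126044440, 17 exon blocks), the G-CSF receptor, had 181, 146, 276 and 110.2 CPM in P2KO replicates 1, 5, 6 and 9 and 237, 174, 158 and 146 CPM in P2WT replicates 10, 3, 4 and 7. In P2H2KO it had 214, 252, 267 and 319 CPM in replicates 11, 12, 15 and 17, and in P2H2WT 204, 176, 209 and 269.6 CPM in replicates 13, 14, 16 and 18. P2H2WT replicate 18 was the one control above 3 of the 4 P2H2KO libraries. The fold change of Csf3r was 1.01 (0.657 to 1.54) in P2KO and 1.23 (0.969 to 1.55; edgeR adjusted p = 0.9999) in P2H2KO.

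The difference between the effects was tested directly, as the change in P2KO over P2WT relative to the change in P2H2KO over P2H2WT in 1 fit of all 16 libraries. It was called for 0 of 10 receptors and for 0 of 14080 genes (0%) by edgeR, where 212 genes (1.51%) but no receptor had an unadjusted p under 0.05. DESeq2 also called 0 genes. The log2 differences were below 0 for 9 receptors, from -0.12 for Cxcr4 to -0.30 for Csf3r, and 0.18 for C3ar1. Of all tested genes 50.4% were above 0. The standard errors of the receptors were 0.22 to 0.49. For Cxcr2 the difference was -0.25 with a 95% interval from -1.30 to 0.80. Wild-type libraries of the lines were compared as a gauge of what differs between lines without a deletion. All 10 receptors were lower in P2WT than in P2H2WT, by a median log2 of -0.21 beside -0.012 over all tested genes, of which 46.6% were higher. But 0 of 10 were called, where 1.22% of 13593 tested genes were, and 0 of 10 receptors had groups that did not overlap, beside 7.81% of genes. None had an unadjusted p under 0.05, which 11.4% of tested genes had. The largest difference was -0.27, for Csf3r (edgeR adjusted p = 0.584). Line and count table cannot be told apart here, and genes of bone and marrow stroma and of endothelium went with the line: their summed levels were 366 to 1242 and 63.6 to 74.6 CPM in P2WT against 125 to 239 and 29.9 to 35.3 CPM in P2H2WT. The part of this in the receptor levels was not tested.

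Single libraries set the directions in the first line. The libraries moved for nearly the whole set at once: in P2KO replicate 6, P2WT replicate 10, P2H2KO replicates 15 and 17 and P2H2WT replicate 18, 10 of 10 receptors were above their own mean over the 16 libraries. In P2KO replicates 1 and 5, P2WT replicates 3, 4 and 7 and P2H2WT replicate 14, 0 of 10 were, and in P2KO replicate 9 only C3ar1 was. Without P2KO replicate 6, 9 of 10 receptors were lower in P2KO, by a median log2 of -0.43, and none was called (lowest edgeR adjusted p = 0.406). Without P2WT replicate 10, 9 of 10 were instead higher, with a median of 0.23. With both left out, an alternative chosen after these levels had been seen, 9 of 10 were lower, with a median of -0.22. In the other line P2H2KO replicate 17 had such weight: without it 4 receptors were higher and 6 lower, with a median of -0.02. Without P2WT replicate 10, P2WT was lower than P2H2WT by a median of -0.39, with no receptor called (lowest edgeR adjusted p = 0.223). In that setting 7 of 10 had an unadjusted p under 0.05, and 0 to 2 did with any other library left out. For the difference of the effects 4 of 10 had such a p without P2KO replicate 6, and 0 with any other library left out. The share of all genes at that level in these settings is not given here.

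**Figure D4:**
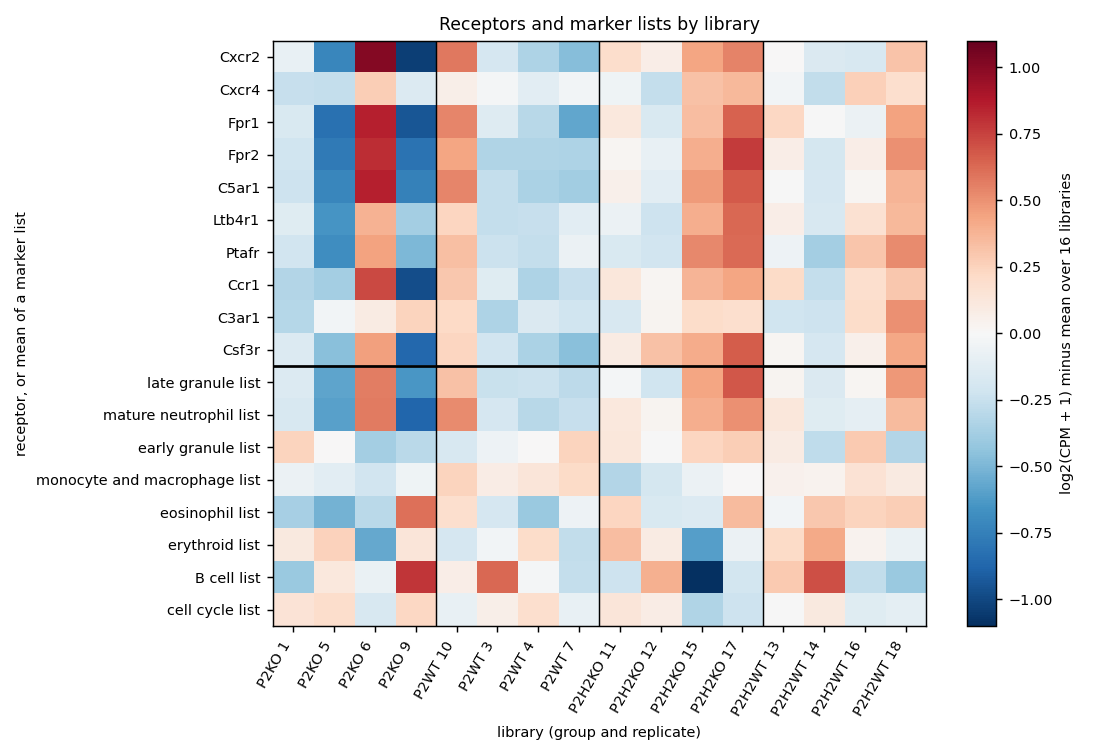
Each column is a library, by group and replicate, and each row a receptor or, under the black line, the mean of a marker list; colour is log2(CPM + 1) minus its mean over the 16 libraries. P2KO replicates 5 and 9 are blue and P2KO replicate 6 red for most receptors and for the late granule and mature neutrophil lists. The monocyte, eosinophil and B cell rows follow other patterns. Erythroid and cell cycle rows ran the other way there: -0.56 and -0.18 in P2KO replicate 6, 0.26 and 0.19 in replicate 5, 0.13 and 0.23 in replicate 9. In P2WT replicate 7, low for the receptors, they were low too, at -0.27 and -0.08.

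The same libraries were high and low for marker genes of neutrophil maturity. The mean log2 level of the 12 mature neutrophil genes, relative to its mean over all libraries, was 0.57 in P2KO replicate 6, 0.52 in P2WT replicate 10 and 0.50 in P2H2KO replicate 17, and -0.87 and -0.60 in P2KO replicates 9 and 5. The 8 late granule genes stood at 0.57, 0.32, 0.69, -0.64 and -0.58 in those libraries. The 7 early granule genes, which mark promyelocytes, were at -0.37, -0.18, 0.27, -0.29 and 0.0029, and so did not follow. Cxcr2 had an SD of 0.52 over the 16 libraries on the log2 scale and 0.15 once the mature neutrophil score of each library was subtracted. In the same way the SD went from 0.51 to 0.15 for Fpr1, 0.49 to 0.14 for Fpr2, 0.47 to 0.12 for C5ar1, 0.42 to 0.14 for Ccr1, 0.41 to 0.15 for Csf3r, 0.40 to 0.22 for Ptafr and 0.34 to 0.20 for Ltb4r1. For Cxcr4 and C3ar1 the SD rose, from 0.22 to 0.30 and from 0.25 to 0.40. The score itself had an SD of 0.41, and subtracting it can raise the SD of a less variable gene that follows it. The rise therefore cannot show whether Cxcr4 and C3ar1 followed the score. Subtracting the monocyte and macrophage score lowered the SD of none of the 10. These are descriptions over libraries that share their cell content, with no test.

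**Figure D5:**
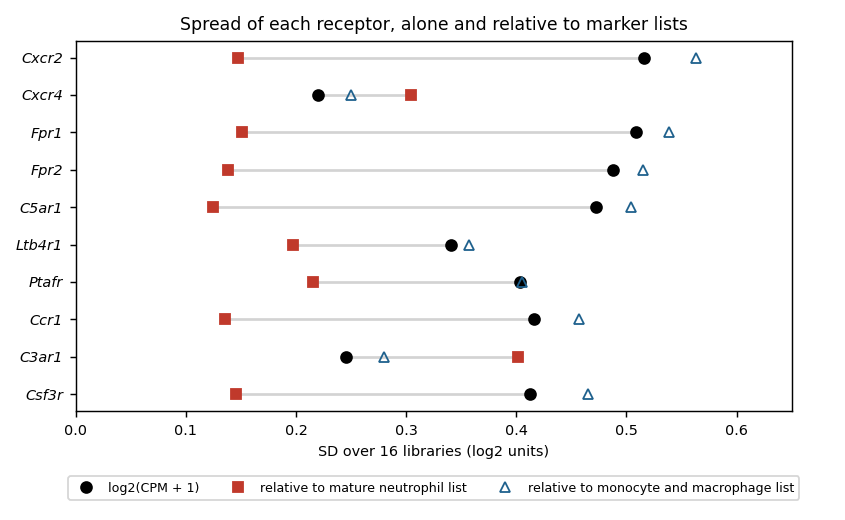
SD over the 16 libraries in log2 units (x axis) for each receptor: alone (black circles), relative to the mature neutrophil list (red squares) and relative to the monocyte and macrophage list (blue triangles). Red squares lie left of the circles for 8 receptors and right of them for Cxcr4 and C3ar1. The mature neutrophil score itself had an SD of 0.41, so a square to the right can arise for a less variable receptor that follows it.

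Genes whose profile over the 16 libraries lay closest to the 3 most variable receptors were looked up among 9817 genes, by the mean absolute difference of log2(CPM + 1) after each gene was centred on its mean. For Cxcr2 they were C5ar1 at 0.10, Cd33, a sialic acid-binding surface receptor, at 0.10, and Il1f9, an interleukin 1 family cytokine, at 0.10. For Fpr1 they were Retnlg, a resistin-like secreted protein of neutrophils, at 0.068, and the granule proteases Mmp8 at 0.082 and Mmp9 at 0.089. For Fpr2 they were C5ar1 at 0.057, the membrane protease Mmp25 at 0.058 and Ifitm6 at 0.072. Retnlg, Mmp8 and Mmp9 are on the mature neutrophil list.

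With the mature neutrophil score as a covariate the sign changed for 4 of 10 receptors in the P2 line and for 7 of 10 in the P2H2 line. In P2KO against P2WT 9 of 10 were then higher, with a median log2 of 0.12, and Cxcr2 had the lowest adjusted p, 0.864 (edgeR). In P2H2KO against P2H2WT 8 of 10 were lower, with a median of -0.13. The difference of the effects was then above 0 for 9 of 10, with a median of 0.14, and again none was called (lowest edgeR adjusted p = 0.999). As lists, the mature neutrophil genes had 0 of 12 called in either line, with median log2 fold changes of -0.10 in P2KO and 0.20 in P2H2KO. The monocyte and macrophage genes had 0 of 15 called, with a median of -0.29 in each line. At an unadjusted p under 0.05, 3 of these 15 were lower in P2KO and 8 in P2H2KO, and 0 were higher. Over all tested genes 3.49% and 2.63% reached that level. The summed level of the 15 genes was 2371 to 2605 CPM in P2KO and 2817 to 3316 in P2WT, which did not overlap. It was 2217 to 3629 in P2H2KO and 2580 to 3698 CPM in P2H2WT. That sum pools unlike genes: Vcam1 averaged 189 CPM in P2H2KO and 274 in P2H2WT, while F13a1 averaged 989 and 967. The sum of 10 T and NK cell genes was 61.6 to 85.4 CPM in P2KO and 89.5 to 103 in P2WT, which did not overlap either, with 0 of 10 genes called (lowest edgeR adjusted p = 0.0688). At an unadjusted p under 0.05, 5 of the 10 were lower in P2KO and 0 in P2H2KO. Of single tested genes, 2.25% had P2KO and P2WT groups that did not overlap. The part of monocyte, T or NK cell content in the receptor values was not tested.

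The remaining genes of the pathway were read from 5 lists, none of whose members was called in any of the 4 comparisons in the main edgeR fits. Mif was called in P2KO against P2WT under other settings, as given below. Of 34 related receptors 26 passed the filter in the P2 line and 24 in the P2H2 line. In the P2 line 1 had an unadjusted p under 0.05, Cx3cr1, the fractalkine receptor of monocytes, at 65.2 ± 11.9 CPM in P2KO and 83.6 ± 7.75 in P2WT (SD, n = 4; log2 -0.35). Gpr35 had a log2 fold change of -0.28, S1pr1, a receptor for sphingosine 1-phosphate, 0.16 and Gpr183, an oxysterol receptor, 0.13. Over all tested genes 3.49% had an unadjusted p under 0.05 in the P2 line and 2.63% in the P2H2 line. In the latter line 3 of the 24 related receptors were higher and 2 lower at that level. Among them were Cysltr1, a leukotriene D4 receptor, at 0.63, Hcar2, the niacin receptor, at 0.60, the eosinophil chemokine receptor Ccr3 at -0.51 and Cmklr1, the chemerin receptor, at -0.42. The remaining one was Cxcr1, the closest relative of Cxcr2, at 0.97 ± 0.26 CPM in P2H2KO and 0.45 ± 0.09 in P2H2WT (SD, n = 4), named after its values were seen. The eosinophil list as a whole had a median log2 fold change of -0.12 there, with 0 of 8 called.

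Of 27 ligand and ligand-synthesis genes 20 were tested in each line. At an unadjusted p under 0.05, 1 was higher and 4 were lower in P2KO, where 3.49% of all tested genes reached that level, and 2 were higher in P2H2KO, where 2.63% did. They were Mif, Ccl5, Ccl9, Ccl6 and Cxcl10 in P2KO and Mif and Pf4 in P2H2KO. In P2KO the chemokines Ccl5 and Ccl9 had log2 fold changes of -0.60 and -0.51, and Mif, a cytokine that can bind Cxcr2 and Cxcr4, had 0.56, at 39.0 ± 2.54 CPM against 26.7 ± 2.88 in P2WT (SD, n = 4). Mif had the lowest adjusted p of the 5 lists in that comparison, 0.122 (edgeR). There it was called by DESeq2 (log2 fold change 0.55) and, in edgeR, with the mature neutrophil score as a covariate (0.53). In the other line Mif averaged 43.2 ± 1.18 CPM in P2H2KO and 28.3 ± 4.06 in P2H2WT (SD, n = 4) and was not called in the main fit. Mouse Mif has processed pseudogenes of nearly the same sequence, and how reads shared with them were counted is not given in the sources used here. The platelet chemokines stood at 0.94 for Ppbp in P2KO, and 1.35 for Ppbp and 0.82 for Pf4 in P2H2KO, with SDs of Ppbp near or above its means: 21.1 ± 26.3 CPM in P2KO and 7.33 ± 6.10 in P2H2KO (SD, n = 4). Without P2KO replicate 9 the value of Ppbp in P2KO was -0.41. Lpcat1, an enzyme that makes platelet-activating factor, had -0.02 in P2H2KO, the lowest of the list among genes that averaged 5 CPM or more in one of the groups. Cxcl1 had 0 counts in all libraries.

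Downstream of the receptors, of 27 G protein signalling genes 26 were tested in each line, with median log2 fold changes of -0.03 in P2KO and 0.08 in P2H2KO, and none had an unadjusted p under 0.05. At that same floor of 5 CPM the extremes in P2KO were Pik3r6 at -0.17 and Gng2 at -0.16, subunits of phosphoinositide 3-kinase γ and of the G protein, and Gnb4 at 0.12 and Plcb3 at 0.07. In P2H2KO they were Cdc42, a small GTPase of cell polarity, at -0.01, and Gng5 and Vav3 at 0.15 each. Of 18 genes of receptor desensitization 17 were tested, with medians of -0.01 and 0.04 and none under an unadjusted p of 0.05. Grk5, a kinase of activated receptors, had -0.22 and Gpsm1 -0.16 in P2KO, against 0.14 for the arrestin Arrb1 and 0.10 for Gpsm2. In P2H2KO Gpsm2 and Arrb1 had -0.10 and -0.08, and Gpsm3 and Arrb2 0.15 and 0.12. All 17 genes of Csf3r signalling were tested, with medians of 0.03 and 0.04. Of these 2, Cebpa and the kinase gene Tyk2, were lower in P2KO at an unadjusted p under 0.05, and none in P2H2KO. Over all tested genes 3.49% and 2.63% reached that level. The transcription factor Cebpa, needed for granulocyte formation, was at 86.2 ± 7.37 CPM in P2KO and 113 ± 13.2 in P2WT (SD, n = 4), a log2 fold change of -0.38 (edgeR adjusted p = 0.99999). Cebpb had -0.24, Hax1 0.18 and Cebpe 0.14 in P2KO. In P2H2KO Cish and Hax1 had -0.11 each, Socs3, an inhibitor of Csf3r signals, 0.24 and Cebpb 0.19.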

How the data were processed

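RNA sequencing counts from 16 libraries were analysed, 4 in each of 4 groups taken from the library titles. The authors deposited 2 tables of raw counts per gene, 8 libraries each, per the file headers. HTSeq and the mm10 build are named in the submitters' processing notes, with no version or role. Aligner, gene annotation and strand setting are not given in the sources used here. Symbols, exon lengths and coordinates came from GENCODE M21 on GRCm38, which gave a symbol to 49326 of 49585 identifiers.

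Each comparison was fitted on all genes with edgeR 4.0.16 in R 4.3.3: filterByExpr, TMM scaling, glmQLFit (robust) and glmQLFTest, with two-sided p-values, a Benjamini-Hochberg adjustment over the whole table and a threshold of 0.05. Standard errors and 95% intervals came from the quasi-likelihood F statistic. P2KO against P2WT, P2H2KO against P2H2WT and P2WT against P2H2WT used their own 8 libraries, and the difference of the effects used all 16. CPM values are from TMM-scaled library sizes over all 16 libraries, and log2 levels used a pseudocount of 1 CPM. A list score is the mean log2 level of its genes. The scripts were tested on simulated data. Ratios were tested by exact permutation of libraries (70 splits), and their p-values were adjusted with scipy 1.17.1.

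The receptors, lists and tests were chosen with earlier results of these data known. Named genes were the 10 receptors, Egln1, Epas1, any list gene called, and from each of the 5 pathway lists the 2 most positive and 2 most negative changes in each line (fewer where a direction had fewer), with a floor of 5 CPM on the mean of the higher group. Genes singled out for other reasons were chosen after their values were seen. Alternatives were DESeq2 1.42.0, scaling by RLE or by upper quartiles, testing all genes or only those with 10 counts or more in each library, the m or f suffix of the titles (its meaning is not spelled out) or the mature neutrophil score as a covariate, 1 fit of all 16 libraries, other pseudocounts and leaving out each library.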

Additional observations from a re-analysis of the deposited data

Results flagged for a closer look

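In 44 groups of 4 libraries (the 10 receptors and the Cxcr2 to Cxcr4 ratio in each of the 4 groups), the highest or lowest library was compared with the rest by Dixon's ratio of gap to range. The critical ratio of 0.829 has an error of about 1 in 20 for a single group. The 44 groups are not independent, because receptors moved together by library, so that rate does not carry over to the set. Both flags came from P2WT replicate 10, with ratios of 0.987 for Fpr2 and 0.904 for C5ar1. Whether chance accounts for them was not tested. Fpr2 in P2WT replicate 10 stood at 172 CPM, while the other 3 P2WT libraries lay between 99.6 and 101 CPM. C5ar1 in the same library stood at 164 CPM, with the others between 86.3 and 93.8 CPM. That library had a mature neutrophil score of 0.52 above the mean of the 16 libraries, and the part of this in the receptor levels was not tested.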

How the results depend on the processing

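No receptor was called in any of the 4 comparisons under any alternative run. The lowest adjusted p over them was 0.406 in P2KO against P2WT, 0.946 in P2H2KO against P2H2WT, 0.721 for the difference of the effects and 0.223 in P2WT against P2H2WT. In P2H2KO against P2H2WT 1 receptor had an unadjusted p under 0.05 in the main fit. None did with RLE scaling, 10 counts or more in each library, either covariate or 1 fit of all libraries. A count of 1 remained with upper-quartile factors, no filter or DESeq2. Direction was less stable: of 170 receptor values recomputed for P2KO against P2WT 45 changed sign, of 160 for P2H2KO against P2H2WT 21, of 240 for the difference 22, and of 160 for P2WT against P2H2WT 4. All values in this paragraph are log2 fold changes unless called counts. In P2KO against P2WT, Cxcr2, Fpr2, C5ar1 and Csf3r went to -0.034, -0.015, -0.0019 and -0.077 with the title suffix as a covariate. With P2KO replicate 6 and P2WT replicate 10 both left out they went to -0.23, -0.24, -0.21 and -0.13, and Plcb3 to -0.030. With the mature neutrophil score as a covariate Cxcr4, Fpr1, Ltb4r1 and Ccr1 went to 0.0050, 0.11, 0.044 and 0.084. Csf3r went to -0.0048 with upper-quartile factors and -0.0025 in 1 fit of all libraries. Mif, not called in the main fit, was called at 0.55 with DESeq2 and at 0.53 with the mature neutrophil score as a covariate. In P2H2KO against P2H2WT the suffix covariate gave -0.054 for Cxcr4, -0.031 for Ltb4r1, -0.074 for Ptafr, -0.016 for Cebpb and 0.067 for Lpcat1. The mature neutrophil covariate gave -0.13 for Cxcr4, -0.17 for Fpr1, -0.13 for Fpr2, -0.045 for C5ar1, -0.18 for Ltb4r1, -0.23 for Ptafr, -0.044 for Ccr1, -0.094 for Arrb2, -0.079 for Cebpb, 0.0055 for Gpsm2, -0.12 for Gpsm3, 0.078 for Lpcat1 and -0.051 for Vav3. For the difference of the effects it gave 0.13 for Cxcr2, 0.031 for Cxcr4, 0.29 for Fpr1, 0.22 for Fpr2, 0.18 for C5ar1, 0.11 for Ltb4r1, 0.081 for Ptafr and 0.15 for Ccr1, and the suffix covariate 0.0023 for Cxcr4. In P2WT against P2H2WT it gave 0.037 for Cxcr2.

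Leaving out each library in turn gave these ranges where the sign changed. In P2KO against P2WT they were -0.50 to 0.37 for Cxcr2, -0.18 to 0.013 for Cxcr4, -0.54 to 0.28 for Fpr1, -0.47 to 0.27 for Fpr2, -0.48 to 0.31 for C5ar1, -0.28 to 0.087 for Ltb4r1, -0.41 to 0.033 for Ptafr, -0.44 to 0.20 for Ccr1, -0.28 to 0.18 for Csf3r, -0.066 to 0.24 for Cebpe, -0.055 to 0.14 for Plcb3, -0.41 to 1.60 for Ppbp and -0.033 to 0.32 for S1pr1. The lowest of each receptor came without P2KO replicate 6. In P2H2KO against P2H2WT they were -0.034 to 0.17 for Cxcr4, -0.054 to 0.22 for Fpr1, -0.0056 to 0.32 for Fpr2, -0.052 to 0.24 for Ltb4r1, -0.043 to 0.26 for Ptafr, -0.15 to 0.16 for C3ar1, -0.084 to 0.054 for Cdc42, -0.079 to 0.34 for Cebpb, -0.38 to 0.031 for Cish, -0.20 to 0.0011 for Gpsm2 and -0.13 to 0.079 for Lpcat1. For the difference they were -0.83 to 0.037 for Cxcr2, -0.65 to 0.16 for Fpr1, -0.66 to 0.068 for Fpr2, -0.73 to 0.045 for C5ar1, -0.58 to 0.060 for Ccr1 and -0.020 to 0.35 for C3ar1, and in P2WT against P2H2WT -0.34 to 0.060 for Cxcr2. The Cxcr2 to Cxcr4 ratio moved between -0.31 and 0.23 in P2KO against P2WT and between -0.23 and 0.085 in P2WT against P2H2WT.

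Counts of all genes called moved by over 1.5 times under some alternatives, except for the difference of the effects, which had 0 under each. P2KO against P2WT had 6, and 23 with DESeq2, 19 with the mature neutrophil covariate and 10 in 1 fit of all libraries. P2H2KO against P2H2WT had 10, 42 with DESeq2, and 6 to 9 with a library left out, the lowest without P2H2WT replicate 13. P2WT against P2H2WT had 166, 87 with at least 10 counts in every library, 419 with DESeq2, 32 in 1 fit of all libraries, and 76 to 167 with a library left out, the lowest without P2WT replicate 10. The cause of these shifts was not tested. No paired analysis was possible because the groups share no replicate number. Read depth was lowest for C3ar1, with 79 to 152 counts per library, and the effect of depth on the calls was not tested.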
